A study of Mus musculus with 55 samples.

Results

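The liver libraries were examined at CpG dinucleotides, the cytosine-guanine pairs at which mammalian DNA is methylated, that lay within 1 kb of a protein-coding transcription start site. A member had to be on an autosome of the mm9 table, to have a value in at least 80% of the 24 reduced representation bisulfite sequencing (RRBS) libraries, and to lie at most 1000 bp upstream or downstream of the nearest start in GENCODE vM1, which uses the mm9 assembly. In all, 26469 CpG cytosines met the rule, out of 270030 autosomal cytosines and 271325 in the whole table. Of these, 9280 lay upstream and 17189 downstream of their start, and they belonged to 8896 starts of 7386 genes. Every member position was a CpG in the mm9 sequence.

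All libraries came from whole liver of C57BL/6 mice (C57BL/6J in the study's methods), with 5 libraries from late embryos (E18.5, days after conception), 9 from postnatal day 1 (P1) and 10 from animals 9 wk of age. The labels name no genetic change and no treatment in any of these groups. By the methods, however, animals of the initial RRBS work ate a special chow whose fat came from coconut oil. That first RRBS set covered late embryos and adults, without P1. The study describes no RRBS set of 9 P1 livers, so the diet behind the P1 libraries is not known. The titles of the P1 libraries also carry a tag reading 6Mo, whose meaning is not given. According to the methods the 9 wk mice were males, whereas the sex of the E18.5 and P1 livers used for RRBS was not given in the sources used here. At 9 wk, 7 libraries were deposited first and 3 later. The study reports that samples within a cohort were randomized and handled together in the same way. That covers its set of E18.5 and 9 wk livers but no described set of P1 livers. Age could not be told apart from batch, sex, diet or processing date where these went with the age group. The p-values measure the spread between these libraries.

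Bisulfite treatment converts unmethylated cytosine and leaves methylated cytosine, so the share of reads that keep a cytosine gives its methylation level. Methyl groups are placed on CpGs by DNA methyltransferases and are copied when a cell divides. In mammals most isolated CpGs are methylated, whereas CpG islands, the CpG-rich stretches around many start sites, are usually free of methylation, and methylation there usually accompanies a silent promoter. Before birth the mouse liver houses blood-forming cells beside immature hepatocytes, and after birth the blood-forming cells leave while the hepatocytes mature. In whole tissue, a change of methylation within a cell type and a change in the mix of cell types cannot be told apart.

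Start sites were grouped by the CpG content of the surrounding kilobase on each side, because CpG-rich and CpG-poor starts differ in their usual methylation. High-CpG starts held a 500 bp stretch with an observed-to-expected CpG ratio over 0.75 and a G+C content over 55%, low-CpG starts had no stretch with a ratio over 0.48, and the rest were intermediate. High-CpG starts carried 12949 members (48.9%), intermediate starts 8763 (33.1%) and low-CpG starts 4757 (18.0%). By annotation, 9160 members lay in introns, 7807 in coding exons, 4121 in untranslated parts of exons and 5381 outside protein-coding genes. Because most genes have several annotated starts, only 14733 members (55.7%) were nearest to the most 5′ start of their gene. The other 11736 were nearest to a later start.

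The members were a selected subset of the CpGs near starts. RRBS reads CpGs close to CCGG, the site cut by MspI, and 1.06% of the reference cytosines that lay within 50 bp of such a site and 1 to 100 bp downstream of a start were in the table. That share was 3.83% in the farthest 100 bp downstream. On the upstream side it was 0.967% in the nearest 100 bp and 3.78% in the farthest. CpGs with little methylation were taken out before deposit: every CpG of the table had a mean of at least 10% at 1 or more of the 3 ages. Among the members, 5536 (20.9%) reached a mean of 10% at 9 wk only, 1411 at E18.5 only and 1472 at P1 only. A member of these kinds had to differ between ages to be present, so counts over all members are given below also for those whose 2 compared ages averaged at least 10%, with each age weighted equally, and without those that reached 10% at 1 age only. Among autosomal CpGs more than 1 kb from every start, 2.39% reached 10% at 9 wk only.

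The share of members without a value was at most 0.359% in each E18.5 library, up to 12.1% at P1 and up to 43.1% at 9 wk, the 2 most incomplete 9 wk libraries standing at 33.1% and 43.1%. Mean levels were therefore computed over the 5516 members of 2413 genes with a value in every library. Among the P1 libraries, replicates 6, 8 and 9 stood above the other 6, at 39.1% to 39.8% against 37.7% to 38.5% over these members. By the study's methods a value rests on at least 10 reads; the depth above that is unknown, since the deposited values are fractions. In what follows, a value written with ± is a mean with the SD over the 5, 9 or 10 libraries of its age, unless an SE is named.

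The stretches below carried the changes described for individual genes and are printed in the direction of transcription from mm9. Capitals mark the CpGs that were members with a value in every library, and of Hk1 and Zfp316 only part of the stretch is shown. They show how the measured CpGs sat together around a CCGG site, which occurred at least 1 time in each of the 8 stretches.
Zmiz1 upstream, chr14:26427049-26427105, plus strand: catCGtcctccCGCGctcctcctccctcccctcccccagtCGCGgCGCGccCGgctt
Hk1 upstream, chr10:61790625-61790744, minus strand: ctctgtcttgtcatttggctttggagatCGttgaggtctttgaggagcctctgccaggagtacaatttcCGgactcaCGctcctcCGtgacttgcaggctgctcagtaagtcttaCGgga
Pkn3 upstream, chr2:29934004-29934090, plus strand: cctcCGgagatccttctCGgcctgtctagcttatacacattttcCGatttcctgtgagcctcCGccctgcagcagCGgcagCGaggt
Pou5f1 upstream, chr17:35644197-35644294, plus strand: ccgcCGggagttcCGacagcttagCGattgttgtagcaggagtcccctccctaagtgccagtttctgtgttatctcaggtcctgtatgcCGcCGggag
AI428936 upstream, chr7:31099060-31099116, plus strand: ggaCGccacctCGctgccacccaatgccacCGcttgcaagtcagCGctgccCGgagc
Ifitm2 upstream, chr7:148142372-148142486, minus strand: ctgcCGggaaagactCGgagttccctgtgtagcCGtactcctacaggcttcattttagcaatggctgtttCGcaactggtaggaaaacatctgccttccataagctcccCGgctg
Agap2 downstream, chr10:126516704-126516758, plus strand: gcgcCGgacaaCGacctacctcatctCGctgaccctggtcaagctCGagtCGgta
Zfp316 downstream, chr5:144016643-144016762, minus strand: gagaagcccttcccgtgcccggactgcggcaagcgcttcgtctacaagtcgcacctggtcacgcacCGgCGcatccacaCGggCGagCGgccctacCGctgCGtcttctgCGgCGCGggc

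Methylation near start sites was higher at 9 wk than at E18.5 on both sides of the start. Upstream, the mean over 1957 CpGs was 37.9% ± 0.314 at E18.5, 39.6% ± 0.741 at P1 and 44.7% ± 0.267 at 9 wk. Downstream, over 3559 CpGs, it was 36.4% ± 0.250, 37.9% ± 0.770 and 42.3% ± 0.313. The libraries of the 3 ages did not overlap on either side. The difference between 9 wk and E18.5 was 6.81 points upstream and 5.82 points downstream, against 9.44 points over 55938 autosomal CpGs farther than 1 kb from any start, which averaged 66.3% at E18.5. By P1, 26.1% of that difference was present near starts and 43.5% away from them. The P1 mean over all 5516 members was 38.5% with the 3 higher P1 libraries and 38.1% without them.

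**Figure D1:**
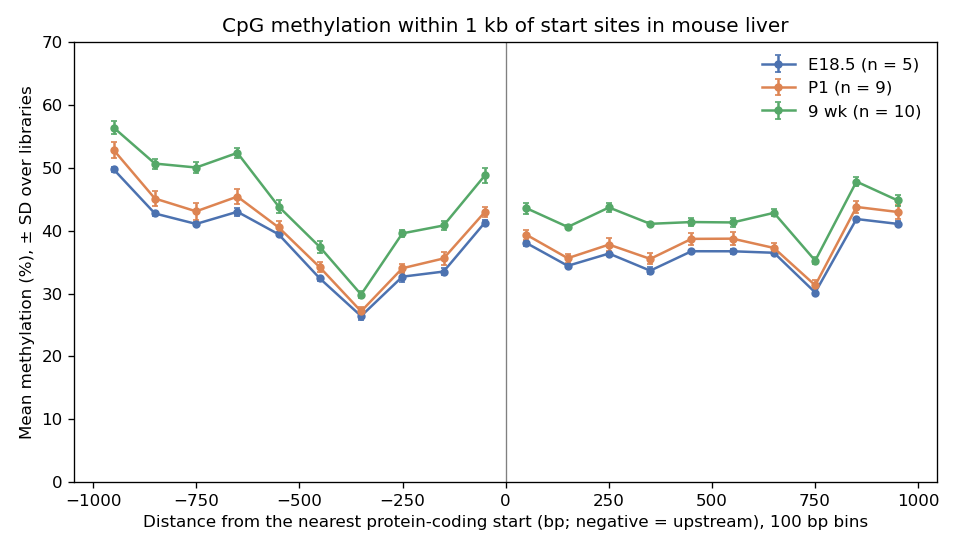
Mean methylation in percent (y axis, ± SD over libraries) of members with a value in every library, by distance from the nearest start in 100 bp bins (x axis, negative values upstream), at E18.5, P1 and 9 wk. The 9 wk line lies above the other ages in every bin, and the lowest bin lies between 300 and 400 bp upstream.

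The profile by distance was uneven, with its lowest window upstream. At 1 to 200 bp upstream the level went from 38.6% ± 0.351 at E18.5 to 46.1% ± 0.955 at 9 wk. Between 200 and 500 bp upstream it went from 30.8% ± 0.530 to 36.2% ± 0.426, and between 500 and 1000 bp upstream from 43.0% ± 0.208 to 50.4% ± 0.343. Downstream, the same windows went from 36.4% ± 0.319 to 42.2% ± 0.523, from 35.5% ± 0.228 to 42.2% ± 0.337 and from 37.1% ± 0.250 to 42.3% ± 0.414. The libraries at P1 and 9 wk did not overlap in any of the 6 windows, and those at E18.5 and P1 overlapped only between 200 and 500 bp upstream.

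The 2 sides differed within every library. Between 500 and 1000 bp the upstream CpGs were higher than the downstream CpGs in 24 of 24 libraries, by 5.86 points ± 0.126 at E18.5 and 8.02 points ± 0.566 at 9 wk. Between 200 and 500 bp the upstream CpGs were lower in every library, with differences of -4.70 points at E18.5 and -5.96 points at 9 wk. These values describe different CpGs of different genes on the 2 sides.

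Levels just inside and just outside the 1 kb limit were as follows. Downstream, the 235 CpGs in the last 100 bp inside averaged 41.1% at E18.5 and 44.8% at 9 wk, and the 200 CpGs in the first 100 bp outside averaged 38.3% and 47.0%. Upstream, the 122 CpGs just inside averaged 49.8% and 56.4%, and the 98 just outside averaged 47.4% and 56.5%.

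Whether the nearest start was the most 5′ one of its gene went with the level upstream. For the most 5′ starts the CpGs between 200 and 500 bp upstream averaged 26.3% ± 0.440 at E18.5 and 29.9% ± 0.675 at 9 wk. For the other starts they averaged 41.4% ± 0.796 and 51.0% ± 1.14. Over the whole upstream kilobase, the difference between 9 wk and E18.5 was 5.51 points for the most 5′ starts and 9.31 points for the others, and downstream it was 5.47 and 6.18 points.

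Levels differed by the CpG content of the start. Upstream of high-CpG starts the mean was 25.4% ± 0.150 at E18.5 and 30.7% ± 0.440 at 9 wk, and downstream it was 20.6% ± 0.217 and 25.7% ± 0.495. Upstream of intermediate starts it was 43.8% ± 0.361 and 51.2% ± 0.546, and downstream 43.3% ± 0.368 and 49.0% ± 0.509. Upstream of low-CpG starts it was 58.8% ± 0.783 and 68.1% ± 0.619, and downstream 60.1% ± 0.505 and 67.7% ± 0.430. At each age the libraries of the 3 classes did not overlap on either side.

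**Figure D2:**
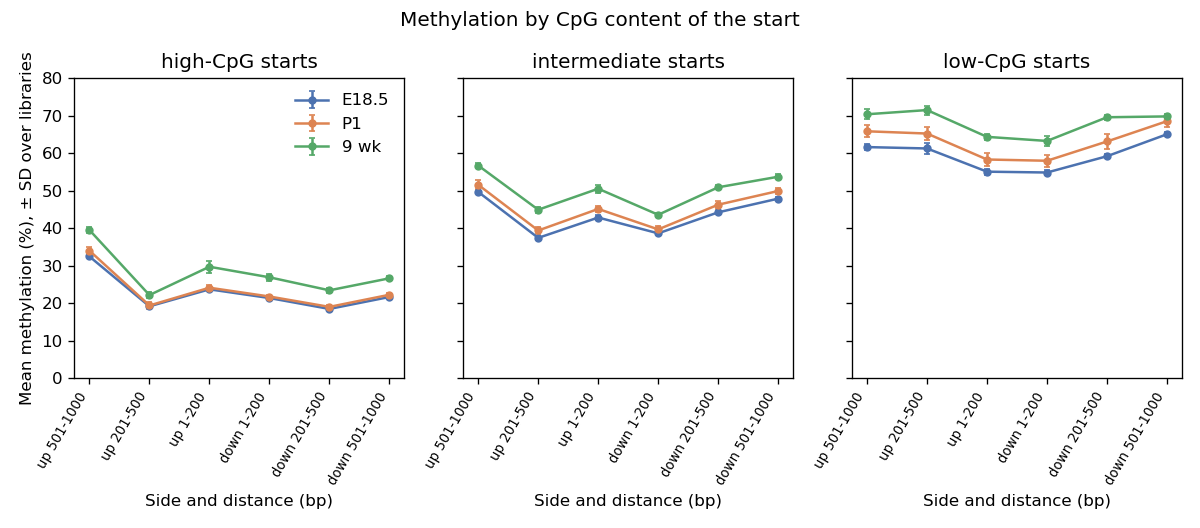
Mean methylation in percent (y axis, ± SD over libraries) in 6 windows of side and distance (x axis) for members at high-CpG, intermediate and low-CpG starts, at the 3 ages. Within each window and age the low-CpG starts lie highest and the high-CpG starts lowest, and 9 wk is the highest age in every window.

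Most members were either low or intermediate in level. At E18.5, 51.0% of the 26469 members had a mean under 20%, 35.4% lay between 20% and 80%, and 13.6% were over 80%. At 9 wk the shares were 44.8%, 32.8% and 22.4%. The share over 80% thus grew on both sides, from 13.6% to 23.5% upstream and from 13.6% to 21.8% downstream. Away from starts, 7.53% of CpGs were under 20% at E18.5 and 63.6% were over 80% at 9 wk.

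Single CpGs were compared with limma over the whole table, and a CpG was called when its Benjamini-Hochberg adjusted p was at most 0.1 and its mean differed by more than 5 points, the threshold of the study. From E18.5 to 9 wk, 8957 of 23541 members tested gained methylation (38.0%), where 58.5% of all 249729 CpGs tested gained. Losses were called at 2348 members (10.0%), where 6.46% of all CpGs lost. The median change was 5.42 points among members and 9.68 among all CpGs. Among the 17988 members whose E18.5 and 9 wk means averaged at least 10%, 7968 gained (44.3%) and 1920 lost (10.7%), and over all CpGs so chosen 60.03% gained and 6.39% lost. When members that reached 10% at 1 age only were left out, 6637 of 16452 gained and 2064 lost, and the matching share over all CpGs was not computed.

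Changes of more than 30 points were gains at 1545 members (6.56%), against 4.69% of all CpGs, and losses at 484 members (2.06%), against 2.24% of all CpGs. Among CpGs whose E18.5 and 9 wk means averaged at least 10%, gains of this size were 8.59% of members and 4.88% of all CpGs. Losses of this size were then 2.69% of members and 2.34% of all CpGs, so the order for losses turned with this limit. At starting levels under 60%, gains over 30 points were less frequent near starts than away from them. They were 7.58% of members against 14.4% of the CpGs farther away under 20% at E18.5. At 20% to 40% they were 15.9% against 28.4%, and at 40% to 60% 7.86% against 11.6%. At 60% to 80% they were 0.642% of members against 0.531%. Of members, 5.33% reached 10% at E18.5 only and 5.56% at P1 only, against 0.321% and 0.372% of the CpGs farther away. Such CpGs could not gain 30 points by 9 wk, so the 2 sets were not fully matched. The gains over 30 points lay at 512 genes and started from a median of 16.1% at E18.5 to reach 63.9% at 9 wk. The losses over 30 points lay at 209 genes and went from a median of 62.7% to 23.3%. High-CpG starts, with 48.9% of all members, held 40.2% of the large gains and 12.4% of the large losses. Low-CpG starts held 44.2% of the large losses. Of members tested at high-CpG, intermediate and low-CpG starts, 5.54%, 6.60% and 9.12% gained over 30 points. In the same order, 0.535%, 2.64% and 4.89% lost over 30 points. A loss of this size needs a level over 30% at E18.5, and high-CpG starts averaged 25.4% upstream and 20.6% downstream. A median of 15 CpGs lay within 200 bp on either side of the large gains, 10 of the large losses and 19 of the members not called.

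**Figure D3:**
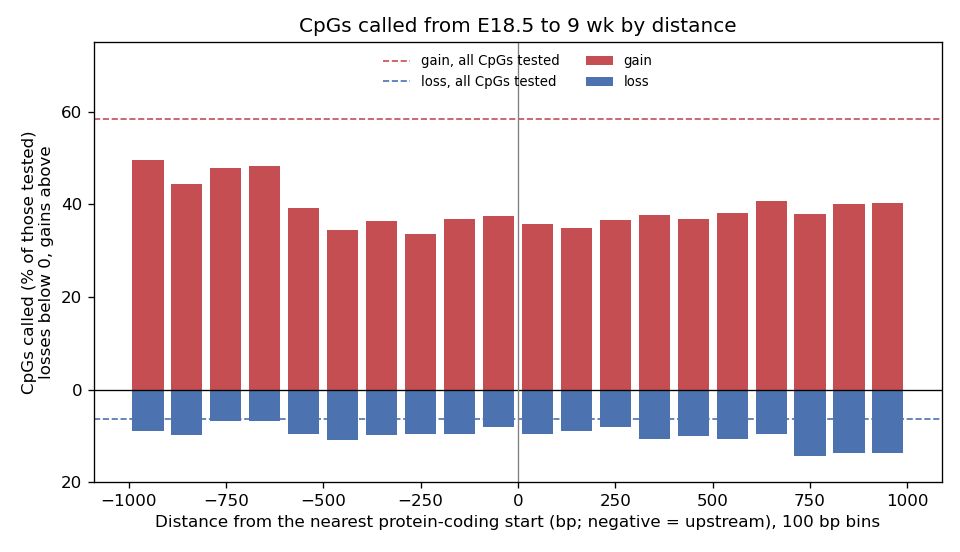
Share of tested members called from E18.5 to 9 wk in percent (y axis, gains above 0 and losses below) by distance from the nearest start in 100 bp bins (x axis). Dashed lines give the shares over all CpGs tested, 58.5% for gains and 6.46% for losses, and every bin lies below the first and above the second.

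By distance, gains made up 49.6% of the members tested in the farthest 100 bp upstream and 37.5% of those in the nearest 100 bp upstream. Downstream they made up 35.7% of those tested in the nearest 100 bp and 40.3% in the farthest. Losses were called at 13.8% of the members in the farthest 100 bp downstream, at 9.58% in the nearest 100 bp downstream and at 8.19% in the nearest 100 bp upstream. By start class, 27.5% of members at high-CpG starts gained and 8.19% lost, 43.3% gained and 10.9% lost at intermediate starts, and 55.5% gained and 12.8% lost at low-CpG starts. With libraries scaled as described below, the gains were 18.0%, 19.2% and 23.2% and the losses 10.5%, 16.1% and 17.9% at high-CpG, intermediate and low-CpG starts. Of all CpGs so scaled, 17.7% gained and 12.9% lost, so the gains at high-CpG and intermediate starts lay near that share.

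Starting level went with the calls. Among members under 20% at E18.5, 30.04% gained, against 44.5% of CpGs in that range away from starts. Among members at 20% to 40% the shares were 33.9% and 51.7%, and losses were called at 22.01% of the members and 14.2% of the others. Among members at 60% to 80%, 55.05% gained, against 67.8% away from starts. At every starting level of 20 points width, with libraries unscaled, the share of gains was thus lower near starts than away from them. The share of losses was higher.

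Most gene sides held calls in 1 direction only. Of 1393 gene sides with at least 5 tested members, 942 held gains and no loss, 191 losses and no gain, 142 both, and 118 no called CpG. A side with a single called CpG is counted here, and gains were 79.2% of all member calls. These counts therefore do not measure how far neighbouring CpGs agreed. At 1125 CpG dinucleotides both strands were tested, and the 2 cytosines differed in their change by a median of 4.04 points. Both strands were called at 458 of these, with the same direction at 458.

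Between E18.5 and P1 few members passed the test. Gains were called at 47 of 25091 members (0.187%), against 0.540% of all CpGs, and losses at 4 members (0.0159%), against 0.0119% of all CpGs. At an unadjusted limma p of at most 0.05 there were 2086 of the 25091 members, 1686 of them higher at P1. The share of all CpGs at this limit was not computed, so the count says nothing particular to members. No member was called without P1 replicates 6, 8 and 9, without any 1 of these 3, without any 1 of the 5 E18.5 libraries, on a logit scale or at an adjusted p of at most 0.05. Leaving out P1 replicate 1, 2, 3, 4 or 5 instead gave 82 to 158 called members. The median change was 1.40 points, with 3.74 points over all CpGs.

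From P1 to 9 wk, 6695 of 21728 members gained (30.8%), against 36.1% of all CpGs, and 2122 lost (9.77%), against 7.00% of all CpGs. Gains over 30 points were called at 1223 members (5.63%), against 3.12% of all CpGs, and losses over 30 points at 371 (1.71%), against 2.13%. Without the members that reached 10% at 1 age only, 4379 of 15068 gained and 1906 lost, and the matching share over all CpGs was not computed. Among those whose P1 and 9 wk means averaged at least 10%, 5681 of 16563 gained (34.3%) and 1788 lost (10.8%). Over all CpGs so chosen 36.6% gained and 6.99% lost, so the gains of members lay near that share. Gains over 30 points were then 7.38% of members and 3.25% of all CpGs, and losses over 30 points 2.24% and 2.22%. This comparison shares its 9 wk libraries with the one from E18.5, so the 2 sets of counts are not independent.

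The excess of gains over losses depended on how libraries were scaled. Libraries were scaled to the mean of 130117 CpGs far from starts with over 80% methylation. That mean itself went from at most 83.5% at E18.5 to at least 92.5% at 9 wk. From E18.5 to 9 wk, 4563 members (19.4%) then gained and 3236 (13.8%) lost. Of all CpGs tested, 17.7% gained and 12.9% lost with this scaling, so the lower share of gains near starts was not seen. Gains were 58.5% of the member calls in place of 79.2%. The median change of the members was 0.95 points, with 0.75 points over all CpGs. From P1 to 9 wk the same scaling gave 4305 gains and 2387 losses, so that gains were 64.3% of the calls in place of 75.9%.

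Gene sides with at least 5 members measured in every library are described next, chosen for the size of their change, so that their values are descriptions. Of such gene sides 164 were higher and 47 lower at 9 wk than at E18.5. The 9 wk libraries lay above all E18.5 libraries at 83 of them and below at 19, by the mean of the side. For single CpGs with a value in every library, the same held at 14.8% (above) and 3.88% (below) of members and at 19.9% and 3.03% of all CpGs, a different quantity from the mean of a side. Adjusted p-values below are limma's for single CpGs.

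Upstream, the 4 largest gains were at Zmiz1, Hk1, Pkn3 and Pou5f1, each in an intron of the same gene, upstream of one of its later starts. At Zmiz1, which encodes a transcriptional coregulator related to the PIAS proteins, the 8 CpGs at chr14:26427053-26427101 lay 223 to 271 bp from a high-CpG start. Their mean was 1.28%, 1.17%, 0.901%, 1.52% and 2.50% in the 5 E18.5 libraries. At P1 it ranged from 0.595% to 5.09% with a median of 1.25%, and at 9 wk from 30.1% to 53.5% with a median of 40.9%. The E18.5 and P1 livers were thus almost unmethylated there and all 10 adult livers were not. CpGs this low at both younger ages were in the table only through their 9 wk level, so that their difference is a description.

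At Hk1, the gene of hexokinase 1, which phosphorylates glucose in most tissues other than the adult hepatocyte, 6 intronic CpGs at chr10:61790629-61790763 gained. Their mean was 27.5%, 25.7%, 24.4%, 23.3% and 28.2% at E18.5. The P1 livers ranged from 21.8% to 46.9% with a median of 33.1%. Those at 9 wk ranged from 45.3% to 73.0% with a median of 66.5%. The P1 livers overlapped both other ages, and 16 of 16 tested members on that side of Hk1 gained.

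At Pkn3, a protein kinase gene, 6 CpGs at chr2:29934008-29934086 lay 18 to 96 bp upstream of a high-CpG start. Their mean was 11.2% ± 2.12 at E18.5, 11.8% ± 3.24 at P1 and 41.7% ± 3.81 at 9 wk, with no overlap between 9 wk and the earlier ages. At Pou5f1, which encodes the pluripotency factor Oct4, 5 CpGs at chr17:35644201-35644290 lay upstream of a low-CpG internal start. Their mean was 18.8% ± 0.560, 24.04% ± 3.57 and 48.9% ± 8.10, and all 5 gained, with adjusted p-values of at most 0.0299.

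The largest losses upstream were at AI428936, Ifitm2, Sept9 and Lipe. Upstream of AI428936, 5 CpGs at chr7:31099064-31099112 lay in a coding exon of the neighbouring gene Alkbh6, 723 to 771 bp from the start. Their mean was 71.5%, 60.9%, 63.6%, 70.6% and 57.4% at E18.5. The P1 livers ranged from 36.8% to 61.9% with a median of 55.5%. Those at 9 wk ranged from 10.6% to 33.3% with a median of 20.3%. All 10 adult livers were below every younger liver, and all 5 CpGs lost, with adjusted p-values of at most 7.79e-06.

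Upstream of Ifitm2, an interferon-induced transmembrane protein gene, 5 CpGs at chr7:148142376-148142482 lay outside genes. Their mean was 43.4%, 33.9%, 37.9%, 35.5% and 32.9% at E18.5. The P1 livers ranged from 20.6% to 37.3%, the 9 wk livers from 0.833% to 20.9%. The highest adult library touched the range of P1 and stayed below E18.5, and all 5 CpGs lost. For Sept9, a septin gene, 6 CpGs upstream of 2 separate starts went from 27.3% ± 1.33 to 8.99% ± 3.94, and all 6 lost. For Lipe, the gene of hormone-sensitive lipase, 5 intronic CpGs averaged 23.5% ± 5.11 and 13.4% ± 6.09, ages overlapped, and 2 of the 5 lost.

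**Figure D4:**
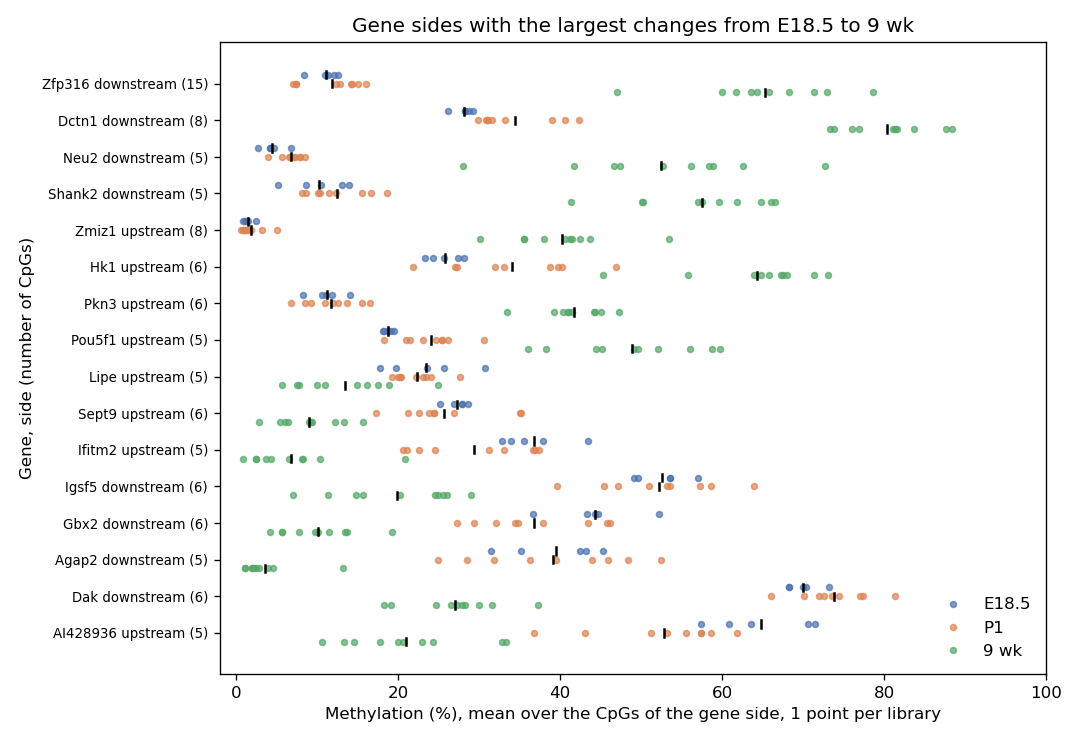
Methylation in percent (x axis) of the 16 gene sides with the 4 largest gains and 4 largest losses on each side of the start, 1 point per library and a black bar at the mean of each age, with the number of CpGs in brackets. For Zmiz1 the 9 wk points lie between 30.1% and 53.5%, and the points of the younger ages lie at 5.09% or less.

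Downstream, the largest gain was at Zfp316, a zinc finger gene. Its 15 CpGs at chr5:144016021-144016696 lay in coding exon sequence 220 to 895 bp into a high-CpG internal start. Their mean was 8.43%, 12.1%, 11.3%, 11.0% and 12.6% at E18.5. The P1 livers ranged from 7.09% to 16.1%, the 9 wk livers from 47.0% to 78.6% with a median of 65.0%. The adult livers were separate from both younger ages. Of 45 tested members on that side of Zfp316, 43 gained and 1 lost.

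The next gains downstream lay in untranslated exon sequence. At Dctn1, which encodes the largest dynactin subunit, 8 CpGs at chr6:83136170-83136255 went from 28.2% ± 1.17 at E18.5 through 34.4% ± 4.83 to 80.4% ± 5.31. At Neu2, the gene of a cytosolic sialidase, 5 CpGs at chr1:89406570-89406609 went from 4.50% ± 1.46 through 6.85% ± 1.38 to 52.5% ± 12.4. These 5 CpGs also lay within 1 kb of a start of Ngef on the other strand. At Shank2, a scaffold protein gene of synapses, 5 CpGs at 2 separate starts went from 10.3% ± 3.52 through 12.4% ± 3.70 to 57.5% ± 8.16. All CpGs of the 3 genes counted here gained, and their adult livers did not overlap the younger ones. The CpGs of Neu2, all under 10% at E18.5, were present through a later age.

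The largest losses downstream were at Dak, Agap2, Gbx2 and Igsf5. Dak encodes triokinase, which phosphorylates dihydroxyacetone and glyceraldehyde in fructose breakdown. Its 6 intronic CpGs at chr19:10678159-10678626 were at 70.3%, 68.3%, 68.3%, 69.97% and 73.2% at E18.5, at 66.0% to 81.3% at P1 and at 18.3% to 37.3% at 9 wk. The P1 libraries straddled those of E18.5, the adult livers were far below both, and all 8 tested members on that side of Dak lost.

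At Agap2, a gene of an Arf GTPase-activating protein, 5 coding CpGs at chr10:126516708-126516754 were at 35.2%, 31.5%, 42.5%, 43.2% and 45.3% at E18.5. They were at 25% to 52.4% at P1 and at 1.05% to 13.2% at 9 wk, with an adult median of 2.39%. No adult library reached the range of the younger ones, and all 5 CpGs lost. At Gbx2, a homeobox gene of the developing brain, 6 CpGs in untranslated exon sequence went from 44.3% ± 5.52 to 10.1% ± 4.59. At Igsf5, an immunoglobulin superfamily gene, 6 CpGs went from 52.6% ± 3.23 to 19.9% ± 7.30. All CpGs of both lost.

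The largest differences between E18.5 and P1 were 12.7 points higher downstream of Adcy6 and 11.6 points higher downstream of Hdgfl1. The largest negative ones were -12.0 points upstream of AI428936 and -8.22 points downstream of Acin1. No CpG of these 4 gene sides was called between E18.5 and P1, and the smallest limma adjusted p-values were 0.105, 0.113, 0.134 and 0.230. At Adcy6, an adenylate cyclase gene, the mean was 52.5% ± 3.03 at E18.5, 65.1% ± 7.71 at P1 and 83.8% ± 5.55 at 9 wk, and all 5 CpGs gained by 9 wk.

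At other gene sides no CpG measured in all libraries was called from E18.5 to 9 wk. The 16 CpGs downstream of the start of 3110070M22Rik were at 82.4% ± 1.31 and 85.6% ± 6.63. The 11 downstream of Peg10, an imprinted gene that shares its start region with Sgce, were at 47.7% ± 7.80 and 45.8% ± 12.2. The 10 upstream of an internal start of Boll, a germ-cell RNA-binding protein gene, were at 45.7% ± 2.61 and 44.1% ± 6.13. Among all tested members, including those that lacked a value in some libraries, 5 of 23 on that side of 3110070M22Rik lost, 1 of 22 at Boll gained and 1 lost, and 0 of 12 at Peg10 were called.

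Single CpGs give the extreme changes on each side. They were chosen for their size from 1029 called members whose E18.5 and 9 wk libraries did not overlap, of 2819 called members with a value in every library, so that their values are descriptions. They are printed with the CpG in capitals.
Psmb8 upstream, chr17:34333950-34333979, plus strand: agctgctaaatctcCGgtctccaccctccc
Mdm2 upstream, chr10:117148705-117148746, minus strand: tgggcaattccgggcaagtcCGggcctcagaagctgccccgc
Zfp316 downstream, chr5:144016658-144016699, minus strand: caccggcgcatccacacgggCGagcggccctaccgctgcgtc
Trmt1 downstream, chr8:87223070-87223111, plus strand: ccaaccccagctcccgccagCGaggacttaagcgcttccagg

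The CpG 701 bp upstream of Psmb8, an immunoproteasome subunit gene, lay in untranslated exon sequence of Tap1. It was at 18.6%, 26.2%, 24.9%, 14.8% and 17.0% at E18.5, at 20.5% to 50% at P1 and at 69.0% to 96.8% at 9 wk. It gained 64.0 points ± 4.11 (SE, adjusted p = 7.38e-09), and the P1 libraries overlapped those of E18.5. The CpG 912 bp upstream of Mdm2, the gene of the ubiquitin ligase of p53, was at 83.3%, 78.9%, 83.6%, 75% and 79.3% at E18.5, at 63.6% to 91.7% at P1 and at 9.09% to 54.5% at 9 wk. Its change was -55.7 points ± 5.48 (SE, adjusted p = 5.37e-07).

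Downstream, the CpG 237 bp into Zfp316 was at 11.1%, 20.8%, 6.86%, 14.1% and 6.25% at E18.5, at 8.33% to 31.2% at P1 and at 50% to 94.1% at 9 wk. It gained 70.3 points ± 5.61 (SE, adjusted p = 5.77e-08). The CpG 794 bp into an internal start of Trmt1, a tRNA methyltransferase gene, lay in coding exon sequence and was at 79.2%, 88.9%, 80.1%, 87.5% and 90.3% at E18.5. It was at 54.5% to 88.0% at P1 and at 0% to 25% at 9 wk, and its change was -75.2 points ± 3.60 (SE, adjusted p = 9.45e-10). At all 4 CpGs the P1 libraries overlapped those of E18.5, and no 9 wk library reached the range of either younger age.

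Losses outnumbered gains in the lists of secreted liver proteins (80.8% lost) and hepatocyte metabolism (63.6% lost), and gains outnumbered losses in the others. Of all members tested 38.0% gained and 10.0% lost, and of all CpGs 58.5% and 6.46%. Gains were 74.4% for blood-forming genes, and several other lists lay near or below the shares of the background. Each list rests on few genes, and several CpGs of 1 gene are not independent of each other. CpGs that averaged under 10% at 1 age were present only through another age. This touches the gains at Sox9, Nr5a2, Meis2, Igf2bp1, Coro1a, Lmx1b and Mycn, whose CpGs averaged under 10% at both E18.5 and P1, and the losses at Arg1, whose CpGs averaged 9.88% at P1 and 2.02% at 9 wk. The counts are repeated further down for CpGs whose E18.5 and 9 wk means averaged at least 10%, a limit that does not remove this selection. Genes of secreted liver proteins had 26 tested members at 8 of 28 genes, of which 0 gained and 21 lost, with a median change of -19.5 points. All 6 tested CpGs at F7 and all 4 at F10, genes of coagulation factors made by hepatocytes, lost methylation. Those of F7, within 238 bp of its starts, averaged 41.7% at E18.5, 44.3% at P1 and 20.7% at 9 wk, and those of F10 averaged 28.4%, 27.8% and 12.1%. At Cfb, the gene of complement factor B, 2 of 4 lost.

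Genes of hepatocyte metabolism had 22 tested members at 7 of 32 genes, of which 2 gained and 14 lost. The 3 CpGs upstream of Arg1, the arginase of the urea cycle, all lost, from an average of 13.97% at E18.5 to 2.02% at 9 wk. The 3 in an intron of Asl, argininosuccinate lyase of the same cycle, all lost, from 55.1% to 21.1%. At Sds, serine dehydratase, 1 of 6 gained and 1 lost. These lists held members at few of their genes, and the genes without a member are not described by them.

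Blood-forming genes went the other way. Of 86 tested members at 13 of 34 genes, 64 gained and 1 lost, with a median change of 14.8 points. All 10 CpGs at Lmo2, a transcription cofactor of blood stem cells and red cell precursors, gained, from an average of 17.1% to 42.6%. At Coro1a, an actin regulator of white blood cells, 8 of 11 gained, and at Ank1, the ankyrin of red cells, 16 of 26 gained and 1 lost. The part of a change in the cell mix in this result was not tested.

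Liver transcription factors and genes of hepatoblasts and the fetal liver held both directions. Of 83 tested members at 14 of 25 transcription factor genes, 43 gained and 22 lost. Of these gains 27 lay at Tbx3, 11 at Nr5a2 and 4 at Gata4. Of the losses 3 lay at Gata4 and 0 at Tbx3 and Nr5a2, so the gains of the list rest on few genes. All 27 CpGs around an internal start in a coding exon of Tbx3, a T-box repressor of hepatoblasts, gained, from an average of 13.8% at E18.5 and 20.0% at P1 to 64.1% at 9 wk. At Nr5a2, a nuclear receptor of bile acid synthesis genes, 11 of 13 intronic CpGs gained, and at Gata4 4 of 10 gained and 3 lost. Of 44 tested members at 9 of 18 hepatoblast and fetal liver genes, 24 gained and 14 lost. All 13 CpGs in coding exons of Sox9, a bile duct and progenitor factor, gained, from 3.73% to 43.4%. All 13 in a coding exon of Krt7, a bile duct keratin, lost, from 44.1% to 18.6%, and all 4 at Igf2bp1, a fetal RNA-binding protein gene, gained.

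**Figure D5:**
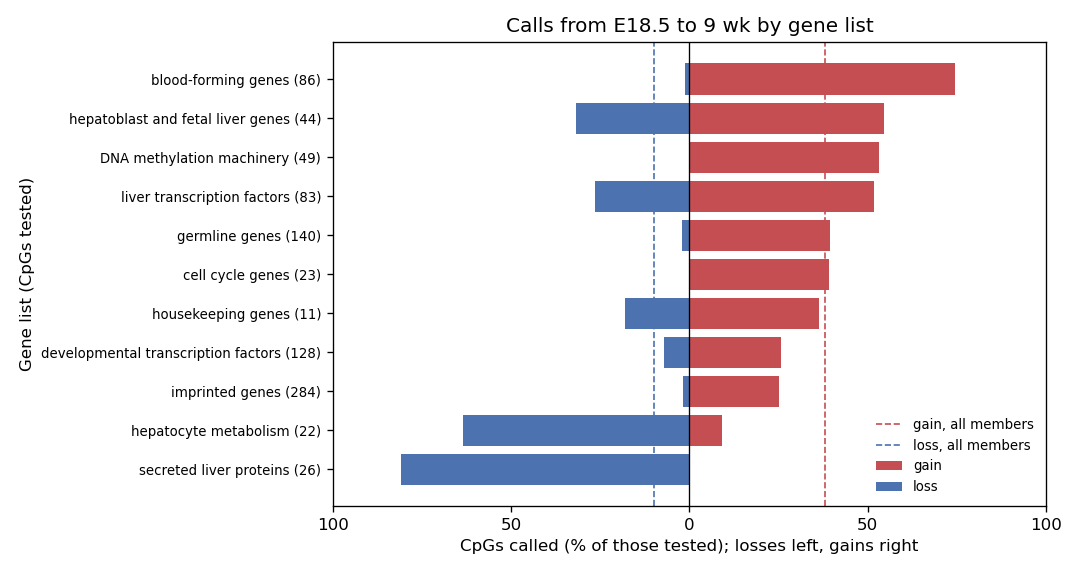
Share of tested members called from E18.5 to 9 wk in percent (x axis, losses left and gains right) for 11 gene lists (y axis, number of CpGs tested in brackets), with dashed lines at the shares over all members, 38.0% for gains and 10.0% for losses. Secreted liver proteins have 0 gains and 21 losses, and blood-forming genes have 64 gains and 1 loss.

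Imprinted genes, of which 1 parental copy is methylated, stayed near the middle of the scale. Of 284 tested members at 19 of 28 genes, 71 gained and 5 lost. The 65 CpGs at Gnas averaged 49.5% at E18.5 and 51.8% at 9 wk, with 10 gains and 1 loss. At Plagl1 the 38 CpGs averaged 44.2% and 44.5%, with 1 gain and 3 losses, and at Magel2 the 27 CpGs averaged 33.4% and 37.6%, with 6 gains. The 8 members downstream of the start of Peg3, also imprinted, averaged between 35.6% and 52.1% at E18.5 and between 46.0% and 52.2% at 9 wk, and 3 of them gained, at adjusted p-values of 0.0303, 0.0683 and 0.0823.

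Germline genes had 140 tested members at 19 of 24 genes, with 55 gains and 3 losses. These gains were 39.3% of the list, near the 38.0% of all members. The 16 CpGs of Slc25a31, an ADP/ATP carrier of the testis, averaged 85.8% at E18.5 and 92.6% at 9 wk, with 9 gains. At Dazl 4 of 14 gained and 1 lost, and at Hormad2 2 of 13 gained and 1 lost. With libraries scaled to highly methylated CpGs, the germline list had 3 gains and 27 losses, so its direction turned with the scaling. Under the same scaling the imprinted list had 24 gains and 7 losses with a median of -0.54 points, and the list of DNA methylation genes 12 gains and 6 losses with a median of -1.62 points. The blood-forming list had 47 gains and 1 loss, and the secreted protein list had 0 gains and 21 losses.

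Single genes of these lists turned with the scaling too. Scaled, Gnas had 1 gain and 2 losses, Plagl1 0 and 4, Slc25a31 1 and 3, Dazl 0 and 4 and Hormad2 0 and 2, and Magel2 had 1 gain. At Mbd3, a gene of the DNA methylation list, scaling gave 0 gains and 5 losses with a median of -5.19 points.

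Developmental transcription factor genes had 128 tested members at 24 of 36 genes, with 33 gains and 9 losses. At Hoxa5 0 of 18 gained and 2 lost, at a mean of 11.4% at E18.5 and 11.3% at 9 wk. At Meis2 10 of 13 gained, from 4.56% to 25.9%, and at Lmx1b 4 of 12 gained. Genes of the DNA methylation machinery had 49 tested members with 26 gains and no loss, among them 8 of 17 at Mbd3, 4 of 11 at Uhrf2 and 6 of 9 at Dnmt3a, a methyltransferase that sets new marks. Cell cycle genes had 23 tested members with 9 gains (39.1%, near the 38.0% of all members) and no loss. Of these gains 4 were at Cdkn1a, the gene of the inhibitor p21, which went from 74.4% to 97.1%. At Mycn 2 of 4 gained and at Cdk4 1 of 5. Housekeeping genes had 11 tested members with 4 gains and 2 losses, the latter both at Actb, and at Gusb 2 of 3 gained.

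The median changes from E18.5 to 9 wk were -11.9 points for hepatocyte metabolism, 9.38 for hepatoblast and fetal liver genes and 10.99 for liver transcription factors, beside 5.42 over all members. Tbx3 held 27 of the 83 CpGs behind the median of the liver transcription factors. They were 4.51 for imprinted, 5.70 for germline, 4.12 for developmental, 7.37 for DNA methylation, 8.06 for cell cycle and 7.17 for housekeeping genes. From E18.5 to P1, 1 gain at the germline genes was the only call in the 11 lists.

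Among list CpGs whose E18.5 and 9 wk means averaged at least 10%, secreted liver proteins had 0 gains and 20 losses at 24 CpGs, and hepatocyte metabolism had 2 gains and 10 losses at 18. Of all members so chosen 44.3% gained and 10.7% lost, and of all CpGs so chosen 60.03% and 6.39%. Blood-forming genes had 50 gains and 1 loss at 64 CpGs. Liver transcription factors had 40 gains and 19 losses at 64, hepatoblast and fetal liver genes 17 and 14 at 34, and developmental transcription factors 20 and 6 at 63. Imprinted genes had 70 gains and 5 losses at 279 CpGs, and the 140 germline CpGs all met the limit. The DNA methylation genes had 22 gains at 39 CpGs, the cell cycle genes 7 at 17, and the housekeeping genes 4 gains and 2 losses at 7. By gene, 12 of 12 such CpGs gained at Sox9, 8 of 8 at Nr5a2, 9 of 9 at Meis2, 5 of 7 at Coro1a, 3 of 6 at Lmx1b and 0 of 1 at Mycn, while Igf2bp1 and Arg1 had none that met the limit. A CpG under 10% at E18.5 met the limit only if it was over 10% at 9 wk. For such CpGs the limit itself selects gains, so these shares by gene are descriptions.

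Few members lay at other loci of interest in liver metabolism. The starts of Rxrg, Nr1i3, Nr1i2, Pck2, Mttp, Sftpa1 and Irs1 had none. At Pck1, which encodes the cytosolic enzyme that commits carbon to glucose synthesis, 3 CpGs lay 48 bp upstream and 58 and 76 bp downstream of the start. They averaged 57.2%, 65.8% and 68.9% at E18.5 and 29.3%, 34.8% and 41.9% at 9 wk, and all 3 lost. The 2 members at 51 and 61 bp upstream of Lep, the leptin gene, had values in too few 9 wk libraries for the test and averaged 83.3% and 57.6% at E18.5.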

How the data were processed

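The authors extracted liver DNA, cut it with MspI, sequenced bisulfite-treated RRBS libraries and aligned reads to mm9 with Bismark 0.7.6 and Bowtie2, per the submitters' processing notes and the study's methods. The deposited mm9 table holds, per CpG cytosine and library, the fraction of reads methylated. The authors set values with fewer than 10 reads to missing and removed CpGs missing in over 20% of samples or under 10% in all samples. In the table every CpG has a mean of at least 10% at 1 or more ages. Fractions were multiplied by 100, and all per-sample columns were assigned to a library by their labels.

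Each CpG was annotated against 45993 protein-coding starts of GENCODE vM1. Distances count from 1, with the start base as downstream 1. A CpG belongs to its nearest start. Means by window use members with a value in every library. Single CpGs were compared between 2 ages with limma 3.58.1 in R 4.3.3 (moderated variances, all CpGs of the table with values in at least 80% of the libraries compared and 1 library at 10% or more), with Benjamini-Hochberg adjustment over all of them. The fit was tested on simulated data: of 186 CpGs changed in a simulation of the comparison of E18.5 with 9 wk, over 18371 CpGs tested, 95 were called (51.1%), and 73.3% of those changed by 20 points or more, along with 14 unchanged CpGs. Far fewer CpGs changed there than were called in the data, with 146042 gains and 16126 losses of 249729. The adjustment depends on that share, so these rates do not give the recovery in the real comparison.

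Members and gene lists were chosen with earlier results of these data known. A gene side was named if it held at least 5 members with a value in every library and was among the 4 largest gains or 4 largest losses on its side from E18.5 to 9 wk, the 2 largest gains or losses from E18.5 to P1, or the 3 with the most members and none called. Up to 3 genes with the most tested members were named per list (1 such gene is not reported here), and the largest gain and loss per side among single CpGs. Alternatives covered thresholds, scale, variance moderation, level filters, scaling, choice of starts, strands and each library. Tables of the authors' own comparisons (differences, p-values, q-values), the mm10 table and the locus-specific bisulfite sequencing table, whose rows name no sample, were not used here, so the planned check of members in the locus-specific assay was not made. Read depth above that minimum is unknown, so no counting interval is given.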

Additional observations from a re-analysis of the deposited data

Results flagged for a closer look

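Within 1 age, a library was listed when its gap to the next one was large against the range of the age by Dixon's ratio; of 96 sets of libraries examined, 10 were listed, where chance lists about 1 in 20. Over the members at 1 to 200 bp upstream, 9 wk replicate 9 was at 48.6% with a group median of 45.9%, and this library had the most missing members, 43.1%. Over the members between 200 and 500 bp upstream, P1 replicate 5 was at 31.0% (median 32.3%) and 9 wk replicate 8 at 37.2% (median 36.1%).

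Downstream of Acin1, P1 replicate 7 was at 67.8% (median 79.4%) and 9 wk replicate 1 at 69.9% (median 84.5%). Downstream of Agap2, 9 wk replicate 3 was at 13.2% (median 2.39%), still below every E18.5 library. Downstream of Hdgfl1, 9 wk replicate 7 was at 78.5% (median 86.9%), and upstream of Ifitm2, 9 wk replicate 8 was at 20.9% (median 5.43%). At the single CpG of Mdm2, 9 wk replicate 10 was at 54.5% (median 20.0%), and at that of Zfp316, 9 wk replicate 8 was at 50% (median 86.6%).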

How the results depend on the processing

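From E18.5 to 9 wk, the count of 11305 called members became 3233 when a value was required in every library compared (6135 members tested) and 7315 with 1 start per gene (16822 tested), and ranged from 8326 to 10737 with each library left out. From P1 to 9 wk, 8817 became 2522 with a value in every library (5514 tested), and ranged from 8284 to 9757. From E18.5 to P1, 51 became 0 at an adjusted p of at most 0.05, on the logit scale, with libraries scaled and with P1 replicates 6, 8 and 9 left out together (chosen after seeing the data, as were leaving out members that reach 10% at 1 age only and the limit on the mean of 2 ages), 116 with all 24 libraries in 1 fit and 28 with 1 start per gene, and ranged from 0 to 158 with each library left out; removing P1 replicates 1, 2, 3, 4 or 5 gave 82 to 158. The mean change upstream, 6.81 points, was 7.32 over every member, 5.87 with 1 value per gene side, 7.75 among members with a mean of at least 10%, 1.97 with libraries scaled and 5.29 with 1 start per gene, and 6.68 to 6.87 with each library left out. The mean change downstream, 5.82 points, was 6.65, 4.85, 6.62, 1.19 and 5.10 in that order, and 5.74 to 5.88 with each library left out. The upstream and downstream changes kept their sign throughout. Among the named gene sides, changes of sign came only at those where no CpG measured in all libraries was called: 3110070M22Rik was at -6.81 points with libraries scaled, Boll at 0.23 over every member, and Peg10, which ranged from -4.62 to 0.72 with each library left out, at 0.49 without E18.5 replicate 4 and 0.72 without 9 wk replicate 4. For the 4 single CpGs, all 84 values under the alternatives run kept the direction and the call. The cause of these shifts was not tested, apart from the smaller number of CpGs where fewer were tested. No paired analysis was possible because the replicate numbers were given in accession order and pair no libraries.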
